A study of Mus musculus with 10 samples.

Results

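Nras, Hras, Araf, Braf, Map2k1, Map2k2 and Mapk3 encode isoforms of the successive proteins of the Ras, Raf, Mek and Erk cascade. These 7 genes were chosen by symbol from 55385 gene identifiers in RNA sequencing of the mouse melanoma line WT31 and its subline WT31_P5IV. The source of WT31 was a melanoma of Tyr∷NrasQ61K/°; INK4a-/- mice, in which the tyrosinase promoter drives a mutant NRAS transgene in pigment cells. WT31_P5IV is 1 subline, obtained from WT31 by 5 rounds of tail vein injection, excision of liver metastases and expansion in culture. Both lines carry the transgene and the INK4a-/- background, and both were grown sub-confluent in RPMI 1640 with fetal calf serum and penicillin/streptomycin, with no drug treatment. The 5 libraries of each line were made from these cultures and not from metastases. The labels call them biological replicates but do not say that they came from separate cultures, so p-values measure only the spread between these libraries. The comparison asked which genes differed between the hepatically passaged subline and its parental line.

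In this cascade a receptor signal loads Ras GTPases with GTP, and active Ras recruits Raf kinases to the membrane. Raf phosphorylates the Mek kinases, which phosphorylate the Erk kinases, and Erk acts on transcription factors and on its own inhibitors. In melanoma the cascade is commonly switched on by mutations of NRAS or BRAF, and a change at codon 61 of NRAS keeps the GTPase in its active state. Each step is shared by closely related isoforms encoded on different chromosomes.

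The window around codon 61 of Nras is shown because the transgene of both lines is mutant at that codon, with the same window of Hras for comparison. Both are reference sequences of GENCODE M21 transcripts on GRCm38, read 5′ to 3′ on the coding strand, with codon 61 in capitals. They cover codons 54 to 68, in exon 3 of 7 of transcript Nras-201 (chr3:103060249-103060293, plus strand) and in exon 3 of 6 of transcript Hras-201 (chr7:141192528-141192572, minus strand).
Nras: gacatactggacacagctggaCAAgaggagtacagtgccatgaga
Hras: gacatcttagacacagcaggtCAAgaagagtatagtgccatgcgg
Of these 45 bases 36 are identical, and codon 61 itself is the same in both genes. Over the 567 coding bases the genes share 427 (75.3%) position by position. None of the 537 words of 31 bases in the Nras coding sequence occurs in that of Hras, and 31 bases is the word length that kallisto matches by default. Of the 31-base words in all transcripts of a gene, from 0% (Hras) to 2.96% (Mapk3) also occur in other genes, with 2.84% for Nras. The study detected the transgene by a PCR for human NRAS in WT31 and its sublines. The tables list mouse genes, so reads of the transgene that match mouse Nras would count as Nras, and transgene and endogenous transcripts cannot be told apart in the Nras values.

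Estimated counts summed to 24825671 to 25750639 per WT31 library and to 24255389 to 25547694 per WT31_P5IV library. A count of 3, taken as the limit of detection, corresponded to 0.117 to 0.124 CPM (the count relative to the total of the library), and all 7 genes lay far above it. The CPM of genes below are on TMM-scaled totals. On the second principal component of log2 CPM, which held 6.18% of the variance, WT31 replicates 2 and 3 (-17.9 and -16.6) stood apart from WT31 replicates 1, 4 and 5 (3.07 to 21), so results that rest on them are given with and without them. All 7 melanocytic markers were measured, with summed levels of 17046 to 18443 CPM in WT31 and 22228 to 25729 CPM in WT31_P5IV, and a median log2 fold change of 0.01. Pmel (1.22), Dct (0.80) and Tyr were higher, Tyrp1 (-0.96) and Sox10 (-0.14) were lower, and Mitf and Mlana did not pass edgeR's quasi-likelihood test. The 5 hepatocyte markers summed to at most 1.18 CPM and the 5 endothelial markers to at most 0.492 CPM, with Serpina1a, Fgb and Cdh5 at 0 counts in all libraries. The 5 leukocyte and macrophage markers summed to 0.833 to 2.18 CPM in WT31 and 3.5 to 5.08 CPM in WT31_P5IV, mostly Cd68, while Ptprc and Adgre1 had at most 2 counts. The 5 stellate cell and fibroblast markers summed to 1.77 to 2.51 CPM and 2.78 to 3.53 CPM. The part of these differences in the results below was not tested. Tyr, whose promoter drives the transgene, measured 3944 ± 58.7 CPM in WT31 libraries and 4675 ± 379 CPM in those of WT31_P5IV (mean ± SD, n = 5 each), a log2 fold change of 0.25 ± 0.05 (SE) with an adjusted p of 0.000564 in edgeR's quasi-likelihood test. Cdkn2a, the INK4a gene, had 63 to 84 counts per library and did not pass that test (2.94 ± 0.225 and 3.13 ± 0.287 CPM, adjusted p = 0.446). Which exons the INK4a allele lacks is not given in the sources used here, so these counts check nothing about it.

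Of the 7 genes, 5 differed between WT31_P5IV and WT31 by edgeR's quasi-likelihood test (adjusted p under 0.05, Benjamini-Hochberg over the 13620 genes tested), where 68.5% of all genes did. Nras, Map2k1 and Mapk3 were lower in WT31_P5IV, as were 33.9% of all genes. Araf and Map2k2 were higher, as were 34.6% of all genes. Hras and Braf did not pass. None of the 7 reached an absolute log2 fold change of 1, which 9.10% of all genes did together with the adjusted p. The median absolute log2 fold change of the 7 genes was 0.27, and that of all tested genes was 0.30. The groups did not overlap in CPM for 3 of the 7 (Nras, Araf and Map2k1), compared with 54.1% of all genes. The counts of these genes were therefore close to the background in number and in size. For none of the 3 pairs (Nras and Hras, Araf and Braf, Map2k1 and Map2k2) did both genes pass the test in the same direction. That does not hold for Nras and Hras without WT31 replicates 2 and 3 or on the TPM scales, where Hras passed as lower beside Nras. The share of such pairs among all genes was not computed, so nothing particular to these pairs follows from it. In RNA of whole cultures, fewer cells that express a gene and less RNA per cell cannot be told apart.

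**Figure D1:**
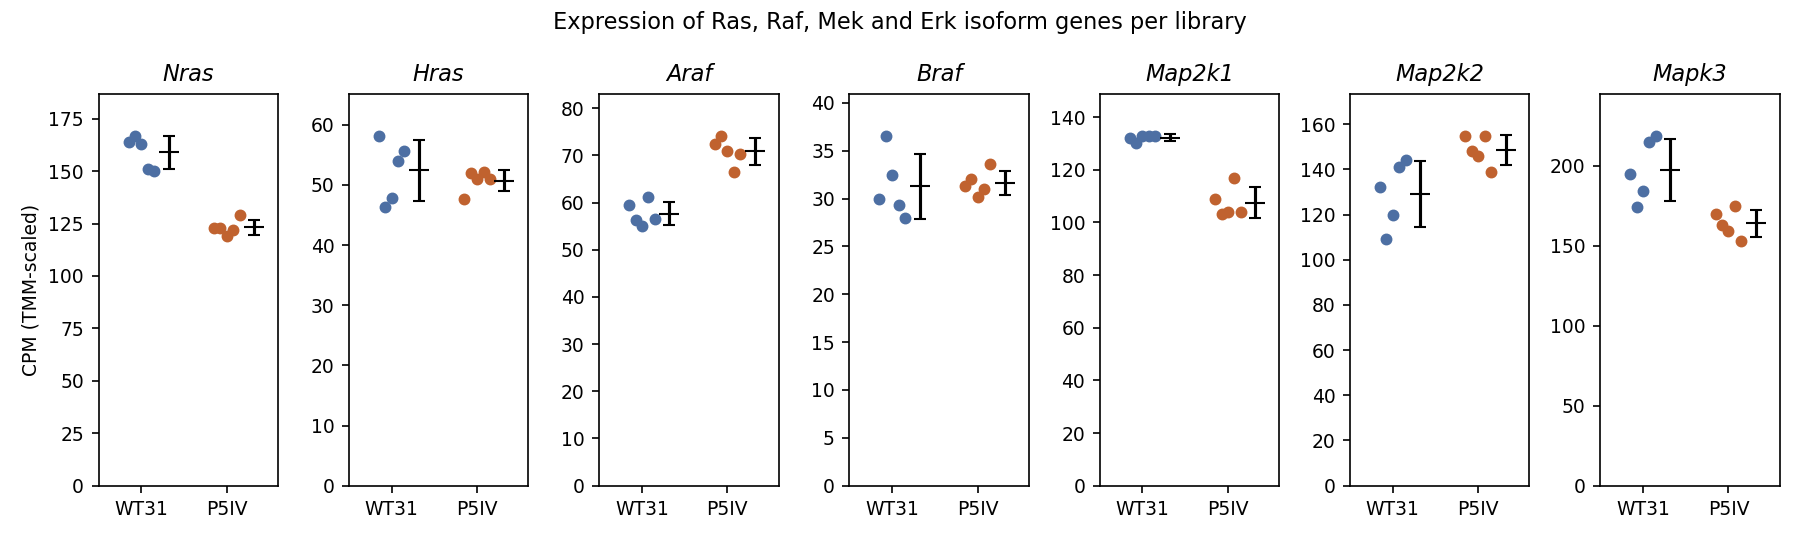
CPM on TMM-scaled library sizes (vertical axes from 0, a separate scale for each gene) of the 7 genes in the 5 WT31 libraries (blue) and the 5 WT31_P5IV libraries (orange, marked P5IV). Points are libraries and bars are the mean ± SD. Nras and Map2k1 lie lower and Araf lies higher in all WT31_P5IV libraries, while the groups overlap for the other 4 genes.

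Nras, a Ras GTPase anchored to the membrane by a lipid tail, lies on chromosome 3 (chr3:103058285-103067914, plus strand, ENSMUSG00000027852.14). WT31 replicates 1 to 5 had 164, 167, 163, 151 and 150 CPM, and WT31_P5IV replicates 1 to 5 had 123, 123, 119, 122 and 129 CPM. Every WT31_P5IV library was below every WT31 library. The means were 159 ± 7.8 and 123 ± 3.49 CPM (SD, n = 5 each), a log2 fold change of -0.37 (95% interval -0.46 to -0.29) or 0.773 times the WT31 level, with an adjusted p of 1.01e-06 in edgeR's quasi-likelihood test. This was the largest absolute change among the 7 genes, and 59.5% of all tested genes changed less, but without WT31 replicates 2 and 3 Mapk3 changed more (-0.37 against -0.35). On log2(TPM + 0.1), a unit per transcript length, Nras was at -0.61 in limma, and at -0.44 relative to the median shift of all genes on that scale (-0.167). The exact two-sided permutation test of the CPM gave p = 0.00794, the smallest that 5 libraries against 5 allow.

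Hras, its close relative on chromosome 7 (chr7:141189105-141194005, minus strand, ENSMUSG00000025499.18), had 58.2, 46.4, 47.8, 54 and 55.7 CPM in WT31 and 47.6, 51.9, 51, 52.1 and 51 CPM in WT31_P5IV. The groups overlapped, and the lowest values were those of WT31 replicate 2, WT31_P5IV replicate 1 and WT31 replicate 3. The means were 52.4 ± 5.1 and 50.7 ± 1.81 CPM. The log2 fold change was -0.05 with a 95% interval of -0.17 to 0.08, and edgeR's quasi-likelihood test gave an adjusted p of 0.487. Without WT31 replicates 2 and 3 it was -0.16 and passed the same edgeR test, with an adjusted p of 0.00245.

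Araf, a Raf kinase that takes the signal from Ras, lies on the X chromosome (chrX:20797814-20860519, plus strand, ENSMUSG00000001127.12). It measured 59.4, 56.3, 55, 61.1 and 56.5 CPM in WT31 and 72.5, 74.2, 70.9, 66.5 and 70.2 CPM in WT31_P5IV. All libraries of the subline were above all parental libraries. On the other strand Araf is overlapped by 4 genes, the pseudogene Gm15028 (370 bases), Gm26065, Gm24824 and Syn1 (9 bases). The means were 57.6 ± 2.49 and 70.9 ± 2.91 CPM, a log2 fold change of 0.30 (95% interval 0.21 to 0.39) with an adjusted p of 1.4e-05 in edgeR's quasi-likelihood test (exact two-sided permutation p = 0.00794). Araf was not called in the fit that changed unit, scaling and test together. On log2(TPM + 0.1), where TPM is a unit that takes transcript length into account, limma gave a log2 fold change of 0.03 with an adjusted p of 0.696. On that scale the log2 fold changes of all genes shifted by a median of -0.167, and relative to this shift Araf was at 0.19.

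Braf, the Raf kinase most often mutated in melanoma, lies on chromosome 6 (chr6:39603237-39725463, minus strand, ENSMUSG00000002413.15) and was the least expressed of the 7 genes. Its CPM were 30, 36.6, 32.5, 29.3 and 28 in WT31 and 31.3, 32.1, 30.2, 31 and 33.6 in WT31_P5IV. The WT31_P5IV libraries fell within the range of the WT31 libraries, of which replicate 2 was the highest. The means were 31.3 ± 3.41 and 31.6 ± 1.29 CPM, with a log2 fold change of 0.02 (95% interval -0.12 to 0.15, adjusted p = 0.842 by edgeR's quasi-likelihood test). Only 3.1% of all tested genes had a smaller absolute change, and its sign was the opposite in limma on log2(TPM + 0.1) (-0.26, adjusted p = 0.105, or -0.09 relative to the median shift of all genes) and without any 1 of WT31 replicates 1, 4 and 5 or WT31_P5IV replicate 5 (-0.04 to -0.01). Without WT31 replicates 2 and 3 it was 0.11, with an adjusted p of 0.0586 in edgeR's quasi-likelihood test. Braf overlaps the pseudogene Fth-ps2 on its own strand by 516 bases and Ndufb2 on the other strand by 146 bases, and whether the counting used strand is not given in the sources used here.

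Map2k1, which encodes the kinase Mek1, lies on chromosome 9 (chr9:64185770-64253631, minus strand, ENSMUSG00000004936.8). Its CPM were 132, 130, 133, 133 and 133 in WT31 and 109, 103, 104, 117 and 104 in WT31_P5IV. The WT31 libraries lay within 3 CPM of each other, and every WT31_P5IV library was below them. The means were 132 ± 1.45 and 108 ± 5.73 CPM, a log2 fold change of -0.30 (95% interval -0.38 to -0.21, 0.814 times the WT31 level) with an adjusted p of 7.57e-06 in edgeR's quasi-likelihood test (exact two-sided permutation p = 0.00794). On the other strand Map2k1 is overlapped by the lincRNA Gm48855 (2457 bases), Uchl4 (1162 bases) and the miRNA gene Gm24106 (127 bases).

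Map2k2, which encodes the paralogous kinase Mek2, lies on chromosome 10 (chr10:81105915-81133975, plus strand, ENSMUSG00000035027.18). It had 132, 109, 120, 141 and 144 CPM in WT31 and 155, 148, 146, 155 and 139 CPM in WT31_P5IV. The groups overlapped, with WT31 replicates 4 and 5 above WT31_P5IV replicate 5. The means were 129 ± 14.6 and 149 ± 6.74 CPM, and the log2 fold change was 0.20 (95% interval 0.06 to 0.34) with an adjusted p of 0.0134 in edgeR's quasi-likelihood test (exact two-sided permutation p = 0.0238). WT31 replicates 2 and 3 were the lowest of the 10 libraries. Without them the log2 fold change was 0.08 and no longer passed the edgeR test (adjusted p = 0.105), nor did it pass with limma on log2(TPM + 0.1), which gave 0.08 with an adjusted p of 0.248. Relative to the median shift of all genes on that TPM scale, Map2k2 was at 0.24.

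Mapk3, which encodes the kinase Erk1 at the end of the cascade, lies on chromosome 7 (chr7:126759601-126765819, plus strand, ENSMUSG00000063065.13). WT31 gave 195, 174, 184, 215 and 219 CPM and WT31_P5IV gave 170, 163, 159, 175 and 153 CPM. WT31_P5IV replicate 4 was just above WT31 replicate 2, and the other libraries of the groups did not cross. The means were 197 ± 19.4 and 164 ± 9.02 CPM, a log2 fold change of -0.27 (95% interval -0.40 to -0.13) with an adjusted p of 0.00143 in edgeR's quasi-likelihood test (exact two-sided permutation p = 0.0159). Mapk3 carried the highest CPM of the 7 genes in both lines. Without WT31 replicates 2 and 3, the lowest of the parental libraries, its log2 fold change was -0.37.

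Levels of different genes were compared as TPM, that is per length. In WT31 the order was Nras (393 ± 50.7 TPM), Mapk3 (193 ± 12.6), Map2k2 (130 ± 11.2), Map2k1 (88.8 ± 1.93), Hras (73 ± 5.92), Araf (62 ± 4.31) and Braf (7.92 ± 1.32). Neighbours in this order did not overlap between libraries, except Hras and Araf. In WT31_P5IV the order was the same, at 257 ± 21.9 TPM for Nras, 151 ± 7.37 for Mapk3, 137 ± 5.15 for Map2k2, 64.9 ± 3.26 for Map2k1, 63.3 ± 2.34 for Hras, 63.1 ± 3.75 for Araf and 6.56 ± 0.95 for Braf. There Mapk3 overlapped Map2k2, and Map2k1, Hras and Araf overlapped one another. Nras was thus the most abundant of these transcripts per length in both lines, 2.04 times the level of Mapk3 in WT31 and 1.7 times in WT31_P5IV, and ranked above 98.8% of detected genes. Araf, the next gene above Braf, was 7.83 times as high in WT31 and 9.61 times as high in WT31_P5IV.

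The first place of Nras rests on the length assigned to its transcripts, since Mapk3 had more counts. The length implied by counts and TPM, scaled on 372 genes with a single transcript, was 642 ± 38 bases in WT31 and 672 ± 47 bases in WT31_P5IV for Nras, whose annotated transcripts run from 276 to 4470 bases and whose coding sequence has 567. That length did not differ between the groups beyond the spread (exact permutation p = 0.317). Implied lengths of Map2k2 (1561 ± 9 and 1518 ± 11 bases) and Mapk3 (1610 ± 12 and 1519 ± 24 bases) did not overlap between the groups and were shorter in WT31_P5IV (exact permutation p = 0.00794, adjusted over the 7 genes 0.0278 for each). Map2k1 was slightly shorter as well, but its groups overlapped (2347 ± 5 and 2318 ± 17 bases, log2 difference -0.02, exact permutation p = 0.0159, adjusted 0.0371). Without WT31 replicates 2 and 3 the log2 difference was again -0.02, but it did not pass (exact permutation p = 0.0714). The lengths of Hras (1130 and 1120 bases), Araf (1471 and 1573 bases) and Braf (6338 and 6840 bases) overlapped between the groups, and without these libraries that of Araf had an exact permutation p of 0.0357. These lengths are approximate, as they are inferred from both tables and not from reads. The scale came from genes of at least 2000 bases and was not checked for shorter transcripts. The implied length of Nras is therefore not directly comparable with its annotated lengths.

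The balance of isoforms at 1 step was compared as the ratio of TPM within a library, for 3 pairs with an exact two-sided permutation test and Benjamini-Hochberg adjustment over the 3. Nras to Hras was 5.25, 6.66, 5.99, 4.63 and 4.57 in WT31 and 3.89, 4.2, 3.82, 3.99 and 4.39 in WT31_P5IV. The ratio was lower in every WT31_P5IV library, by a log2 difference of -0.40 (p = 0.00794, adjusted 0.0119, exact test). WT31 replicates 2 and 3 had the highest ratios, and without them the difference was -0.25, still with no overlap (exact permutation p = 0.0179, the smallest that 3 libraries against 5 allow). Map2k1 to Map2k2 was 0.657, 0.789, 0.741, 0.629 and 0.617 in WT31 and 0.458, 0.459, 0.463, 0.497 and 0.492 in WT31_P5IV. Here too the groups did not overlap, with a log2 difference of -0.53 (p = 0.00794, adjusted 0.0119, exact test), so the balance of the Mek isoforms was shifted toward Map2k2 in the subline. The same libraries were again the highest, and without them the difference was -0.42 with no overlap (exact permutation p = 0.0179). As CPM, Map2k1 and Map2k2 were about level in WT31, with log2 ratios from -0.11 to 0.24, and Map2k1 was below Map2k2 in all WT31_P5IV libraries, with log2 ratios from -0.52 to -0.41.

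Araf to Braf was 7.97, 6.29, 6.82, 11.9 and 7.63 in WT31 and 8.71, 10.6, 13.2, 8.75 and 8 in WT31_P5IV. The groups overlapped, mainly through WT31 replicate 4, and the log2 difference of 0.29 did not pass the exact permutation test (p = 0.183). Without WT31 replicate 4 it was 0.44 (exact permutation p = 0.0159), without WT31 replicates 2 and 3 it was 0.11 (exact permutation p = 0.571), and the ratio of CPM gave 0.28 with groups that did not overlap (exact permutation p = 0.00794).

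Summed over each pair, which need not hold all isoforms of a step, Nras and Hras gave 466 ± 50.5 TPM in WT31 and 320 ± 23.8 TPM in WT31_P5IV, a log2 difference of -0.54. Araf and Braf gave 69.9 ± 3.16 and 69.6 ± 3.1 TPM (-0.01), and Map2k1 and Map2k2 gave 219 ± 9.63 and 202 ± 7.58 TPM (-0.12). The sums were not tested. As CPM the differences were -0.28, 0.21 and -0.03, and the differences as TPM include the median shift of -0.167 of all genes on log2(TPM + 0.1). The sums of Araf and Braf and of Map2k1 and Map2k2 differed as TPM by less than that shift. Without WT31 replicates 2 and 3 the differences as TPM were -0.47, -0.04 and -0.16.

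**Figure D2:**
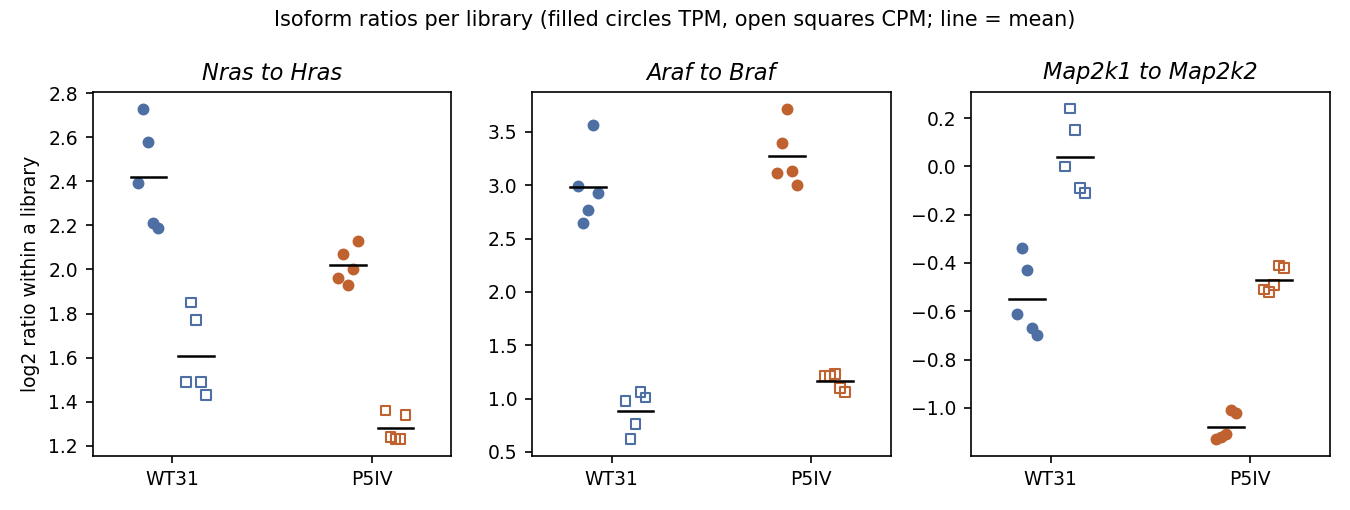
Log2 ratio of isoforms within each library (vertical axes, a separate scale for each pair) in WT31 (blue) and WT31_P5IV (orange, marked P5IV), with filled circles for TPM, open squares for CPM and lines at the mean. The ratios of Nras to Hras and of Map2k1 to Map2k2 are lower in all WT31_P5IV libraries in both units, and those of Araf to Braf overlap as TPM but not as CPM.

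The genes lie on 6 chromosomes, with Hras and Mapk3 both on chromosome 7, and each was set beside its surroundings. On chromosome 6, 401 of 676 tested genes were higher and 94 lower in WT31_P5IV, with a median log2 fold change of 0.28. Braf stood at 0.02 there, below the median of 0.26 of its 15 tested neighbours within 1 Mb, of which 9 were higher and none lower. The other chromosomes of these genes had medians from -0.13 for the X chromosome to 0.08 for chromosome 7. On the X chromosome, 180 of 392 tested genes other than Araf were lower and 107 higher. Nras and Map2k1 lay among neighbours with medians of -0.16 and -0.15, where 8 of 16 and 10 of 19 genes were lower. Map2k2 lay in a gene-dense stretch where 45 of 87 neighbours were higher (median 0.23). Araf (0.30) was above the median of its 15 neighbours (0.06), while Hras and Mapk3 were below the medians of theirs (0.12 and 0.14, and 0.04 and 0.10 without WT31 replicates 2 and 3). These medians are descriptions and were not tested.

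**Figure D3:**
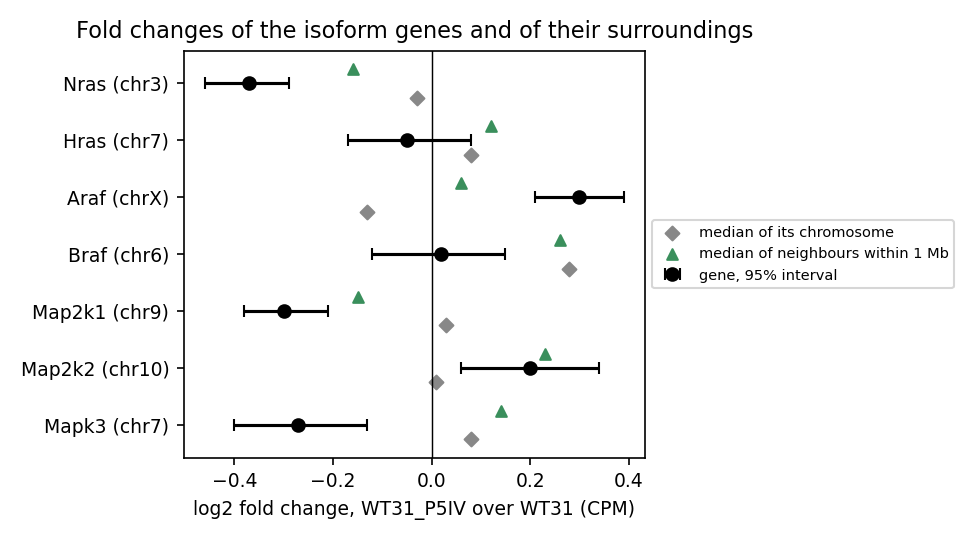
Log2 fold change of each gene in WT31_P5IV over WT31 from CPM (horizontal axis; black circles with 95% intervals) beside the median of all tested genes on its chromosome (grey diamonds) and of those within 1 Mb (green triangles). Nras, Map2k1 and Mapk3 lie below 0 and Araf and Map2k2 above it, and Braf lies below the medians of chromosome 6 and of its neighbours.

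The promoter windows of Nras, Map2k1 and Araf are shown because these 3 genes had groups that did not overlap, the first 2 lower and the last higher in WT31_P5IV. Each holds the 250 bases before the start of the gene in RefSeq on GRCm38.p6, 5′ to 3′ on the strand of the gene. Capitals mark matches, on either strand, to the GC box GGGCGG, the ETS-type motif CCGGAA, the CCAAT box CCAAT and the TATA box TATAAA. The windows are chr3:103058035-103058284 (plus strand) for Nras, chr9:64253606-64253855 (minus strand) for Map2k1 and chrX:20848293-20848542 (plus strand) for Araf, and the RefSeq starts of Araf and Map2k1 lie within the longer GENCODE genes.
Nras: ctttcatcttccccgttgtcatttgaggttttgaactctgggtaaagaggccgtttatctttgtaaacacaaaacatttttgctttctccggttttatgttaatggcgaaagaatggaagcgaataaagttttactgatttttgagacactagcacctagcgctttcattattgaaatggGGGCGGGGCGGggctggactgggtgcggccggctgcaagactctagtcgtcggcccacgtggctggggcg
Map2k1: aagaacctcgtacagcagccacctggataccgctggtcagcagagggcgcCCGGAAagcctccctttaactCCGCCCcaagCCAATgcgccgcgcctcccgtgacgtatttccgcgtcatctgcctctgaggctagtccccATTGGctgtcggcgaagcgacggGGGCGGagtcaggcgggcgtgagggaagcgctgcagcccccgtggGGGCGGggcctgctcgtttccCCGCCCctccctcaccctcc
Araf: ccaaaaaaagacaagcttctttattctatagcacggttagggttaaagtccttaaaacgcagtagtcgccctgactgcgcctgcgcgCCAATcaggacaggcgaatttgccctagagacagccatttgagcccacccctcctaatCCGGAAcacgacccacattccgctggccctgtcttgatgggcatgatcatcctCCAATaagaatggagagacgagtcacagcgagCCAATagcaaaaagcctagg
Nras holds 2 GC boxes that share 1 base and no other match. Map2k1 holds 4 GC boxes, 1 ETS-type motif and 2 CCAAT boxes. Araf holds 3 CCAAT boxes and 1 ETS-type motif. Of 32851 promoter windows of this length, 32.7% hold the GC box, 12% the ETS-type motif, 33.8% the CCAAT box and 12.4% the TATA box, which none of the 3 windows holds. GC content was 48.4% for Nras, 68.4% for Map2k1 and 51.2% for Araf. The windows of the lower pair thus differ from each other in GC content and in these motifs.

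For the called genes, those with the most similar pattern of log2 CPM over the 10 libraries were named by Pearson's r, as a description that mostly follows the difference between the groups. They were Acadsb (0.996) and Naa30 (0.994) for Nras, B4gat1 (0.989) and Kptn (0.987) for Araf, Fam53c (0.997) and Gnb1 (0.993) for Map2k1, Vps25 (0.984) and Aurkb (0.983) for Map2k2, and Cfl1 (0.993) and Cdkn1a (0.99) for Mapk3. On deviations from the group means the closest were Zfp655 (0.97) and Vmn2r24 (0.953) for Nras, Yars2 (0.921) and Abcb9 (0.917) for Araf, Fam53c (0.974) and Palm (0.936) for Map2k1, Cited1 and Traf4 (both 0.989) for Map2k2, and Dcakd and Cdk2ap1 (both 0.988) for Mapk3. Fam53c was the gene closest to Map2k1 in both ways. These values are the highest of all genes compared, over only 10 libraries. Within WT31 they can also carry the difference on the second principal component.

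Around these isoforms, 11 lists of other genes of the pathway held 135 genes, of which 111 were tested. By edgeR's quasi-likelihood test, with the same threshold, 58 of the 111 (52.3%) were lower in WT31_P5IV and 27 (24.3%) were higher, where 33.9% and 34.6% of all tested genes were. The median log2 fold change of the 111 genes was -0.16 and that of all tested genes was 0.010.

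Upstream of Ras, exchange factors load the GTPases with GTP, and of 4 tested Sos1 and Sos2 were lower and none was higher, while limma called 4 exchange factors on log2(TPM + 0.1). Sos1 went from 53.3 ± 6.93 to 42 ± 1.79 CPM, a log2 fold change of -0.35 (adjusted p = 0.000735 by edgeR's quasi-likelihood test), and Sos2 changed by -0.31. Of 8 adaptors that link receptors to the exchange factors, 4 were lower and 2 higher. Shc1 fell from 201 ± 8.07 to 149 ± 2.03 CPM (log2 fold change -0.43) and Grb2, which binds Sos proteins, fell from 93.5 ± 4.09 to 79.6 ± 3.23 CPM (-0.23). Frs3 (0.84) and Shc3 (0.53) were higher, at 1.15 and 3.99 CPM in WT31. Of 7 GTPase-activating proteins, which switch Ras off, 2 were lower (Rasa1, -0.27, and Rasa2, -0.28) and 2 higher, among them Rasa3 (0.10), and without WT31 replicate 4 the list had 2 called genes in all. Nf1, the neurofibromin gene, measured 118 ± 17.6 and 110 ± 4.92 CPM and did not pass edgeR's quasi-likelihood test (adjusted p = 0.253).

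Ras proteins need a lipid tail to reach the membrane, and 6 of the 10 tested genes of this processing were lower and 3 higher. Zdhhc9, a subunit of the enzyme that adds palmitate to Hras and Nras, fell from 53.2 ± 0.892 to 26.8 ± 1.17 CPM, a log2 fold change of -0.99 with an adjusted p of 2.46e-11 in edgeR's quasi-likelihood test. Rce1, the protease that trims prenylated Ras, rose from 23.6 ± 1.67 to 39.3 ± 0.901 CPM (0.74). Pggt1b, a subunit of the geranylgeranyl transferase, changed by -0.63. Among other small GTPases of the Ras family, all 12 of the 12 tested were lower (median -0.33, 10 to 13 lower over the alternative settings), as Nras was. The largest changes were those of Rap2c (-0.64), Rap2a (-0.56) and Rap1a (-0.52).

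At the level of Raf and Mek, 13 of 21 tested scaffolds and regulators were lower and 4 higher (median -0.25). Ksr1, a scaffold that brings Raf and Mek together, fell from 23.1 ± 1.01 to 16.9 ± 0.576 CPM (-0.45), and Shoc2, which promotes Raf activation, fell from 78.3 ± 2.39 to 63.7 ± 1.92 CPM (-0.30). The 14-3-3 genes Ywhag (-0.58) and Ywhaz (-0.46) and the phosphatase subunit gene Ppp1cb (-0.49) were also lower. Among 14 other MAP kinase kinase kinases 7 were higher and 3 lower, with Map3k14 (0.77), Map3k8 (0.70) and Map3k6 (0.56) the furthest up from low levels. On log2(TPM + 0.1) 5 of them were called in limma. Of the 5 other MAP kinase kinases Map2k4 alone passed in edgeR, at 94 ± 2.22 and 71.8 ± 1.77 CPM (-0.39), and 3 passed without WT31 replicates 2 and 3.

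Downstream, 4 of 8 other MAP kinases were higher and 2 lower. Mapk4, an atypical MAP kinase, fell from 5.04 ± 0.373 to 1.88 ± 0.189 CPM (-1.42), Mapk12 rose (0.68) and Mapk6 fell (-0.47). Of 10 tested kinases and transcription factors that Erk phosphorylates, 3 were higher and 5 lower, with Rps6ka1 (0.77), Rps6ka4 (0.53) and Rps6ka2 (-0.52) the furthest from 0. The Erk phosphatases and feedback inhibitors are known to be transcribed in response to Erk signaling, and 8 of 12 tested were lower and 2 higher (median -0.30). Spry4, a Sprouty inhibitor, fell from 259 ± 3.94 to 109 ± 11.6 CPM, a log2 fold change of -1.24 with an adjusted p of 1.64e-10 in edgeR's quasi-likelihood test. Dusp6, a phosphatase of Erk, fell from 329 ± 10.6 to 203 ± 16.9 CPM (-0.70, adjusted p = 2.08e-08 in the same edgeR test), and Dusp5 changed by -0.55. Spry4 and Mapk4 were the only genes of the 11 lists with a called absolute log2 fold change of at least 1. Phosphorylated Mek and Erk were not measured by these libraries, so the values are transcript levels only.

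**Figure D4:**
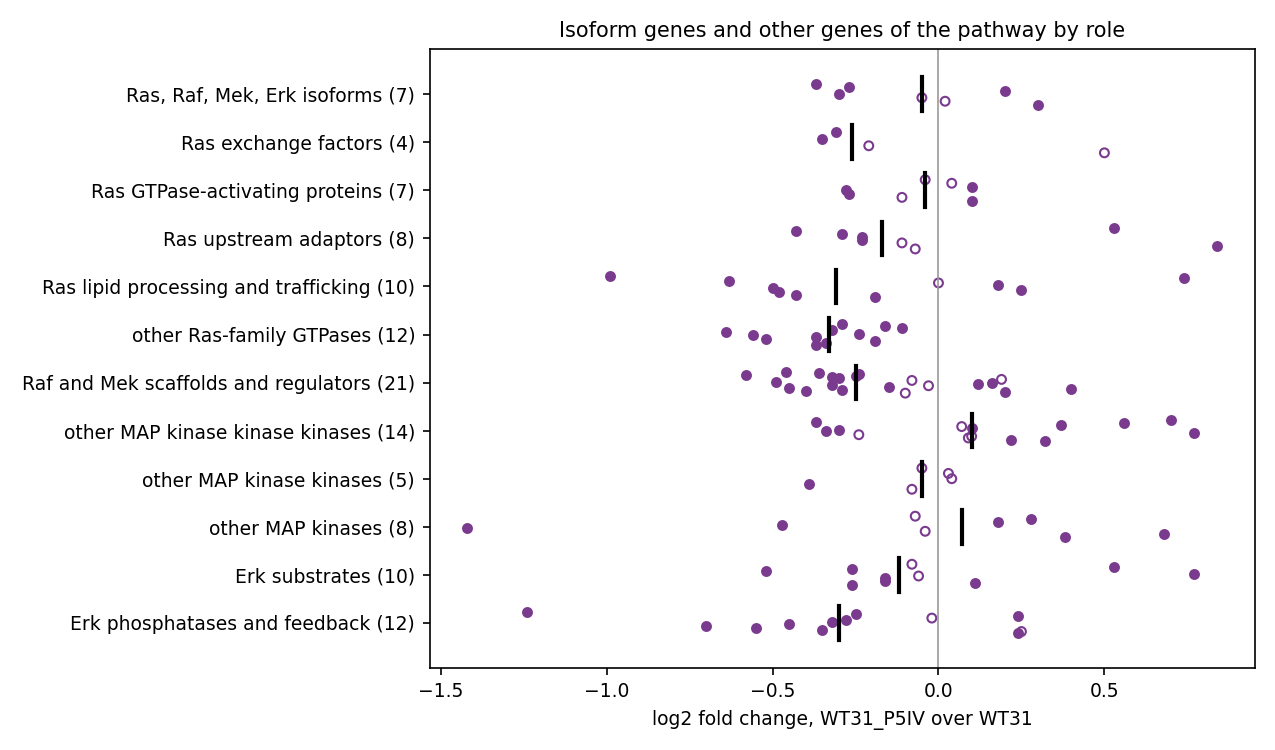
Log2 fold change in WT31_P5IV over WT31 (horizontal axis) of the tested genes of each list, with the number tested in brackets. Filled points had an adjusted p under 0.05, open points did not, and vertical lines are medians. The 7 isoforms lie between -0.37 and 0.30, while the other Ras-family GTPases all lie below 0 and Spry4 and Mapk4 lie below -1.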

How the data were processed

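RNA sequencing of 10 libraries was used, 5 of WT31 and 5 of WT31_P5IV. The submitters' processing notes name Trim Galore 0.6.4, kallisto 0.4.6 and GRCm38.p6, and the study's methods give a different version number for kallisto. The authors summed kallisto's estimated counts per gene and deposited them, and they deposited kallisto's TPM per gene in the same way. Neither the annotation release nor the strand setting is given in the sources used here. Symbols and positions came from GENCODE M21, which holds 55144 of the 55385 identifiers. Replicate numbers follow the sample titles.

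Estimated counts were rounded to whole numbers, genes were kept by filterByExpr (13620 of 31234 with at least 1 count), libraries were scaled by TMM, and edgeR 4.0.16 under R 4.3.3 was used to compare the groups (glmQLFit, then glmQLFTest). The Benjamini-Hochberg adjustment covered all genes tested, and genes were called at an adjusted p under 0.05. CPM of single genes and TPM ratios within a library were compared by exact two-sided permutation tests (scipy 1.17.1). Limits of 3 counts cover counting error only. No libraries agreed within sampling noise (chi-square per degree of freedom 2.37 or more).

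Alternatives were DESeq2 1.42.0, limma 3.58.1 with voom (with TMM, or without scaling or filter), upper-quartile scaling, other count filters, limma on log2(TPM + 0.1) and log2(TPM + 1), the replicate number as a block, ratios and sums in other units, windows of 500 kb and 2 Mb, and each library left out in turn. Results without WT31 replicates 2 and 3 were added after seeing the data. The members and lists were chosen with earlier results of these data known. The genes named are every member, the 3 called genes of each pathway list with the largest absolute log2 fold change, Grb2, Sos1, Nf1, Ksr1, Shoc2, Dusp6, Tyr and Cdkn2a, and, for each called member, the 2 genes most like it by Pearson's r. Cell type markers were fixed lists of 5 or 7 genes. Of Ras, Raf, Mek and Erk isoforms, those not named were not analysed here, nor were sequencing reads, protein or in vivo data.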

Additional observations from a re-analysis of the deposited data

Results flagged for a closer look

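The screen covered 34 sets of 5 values: CPM and implied length of the 7 genes and the TPM ratios of the isoform pairs, by group. In each set the highest and lowest library were compared with the rest by Dixon's ratio of gap to range. The 95% limit of 0.71 was exceeded in 2 sets. Chance exceeds it in about 1 of 20 such sets. Map2k1 in WT31 replicate 2 was the lowest of its group at 130 CPM, against 132 to 133 CPM in the others (ratio 0.761), a gap that is small because the WT31 libraries lay so close together. Hras in WT31_P5IV replicate 1 was the lowest of its group at 47.6 CPM, against 51 to 52.1 CPM in the others (ratio 0.746). Without that library the log2 fold change of Hras in edgeR was -0.03 (adjusted p = 0.684).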

How the results depend on the processing

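Nras, Map2k1 and Mapk3 were lower in WT31_P5IV and past the threshold in all 20 alternatives, with log2 fold changes from -0.61 to -0.34, -0.45 to -0.27 and -0.37 to -0.24. Relative to the shift of all genes on log2(TPM + 0.1), Nras was at -0.44, Map2k1 at -0.29 and Mapk3 at -0.18. Genes called ranged from 8622 to 10163. Genes past the fold filter numbered 2513 with limma voom without scaling or filter, 2319 with no count filter, 698 with at least 10 counts in every library and 465 on log2(TPM + 1). Members higher numbered 1 with limma voom without scaling or filter, 0 on both TPM scales, and 1 without WT31 replicates 2 and 3. Hras was called lower on both TPM scales (-0.20, adjusted p = 0.0049 and 0.00493 in limma; -0.04 relative to the shift of all genes on log2(TPM + 0.1)) and without WT31 replicates 2 and 3 (-0.16). Araf (0.03) and Map2k2 (0.08) were not called on the TPM scales, nor was Map2k2 with limma voom without scaling or filter (0.14, adjusted p = 0.0861) or without WT31 replicates 2 and 3 (0.08). Braf changed sign with limma voom without scaling or filter (-0.05), with no count filter (-0.04), on log2(TPM + 0.1) (-0.26) and on log2(TPM + 1) (-0.23), and ranged from -0.04 to 0.07 with 1 library left out. The cause of these changes was not tested.

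On log2(TPM + 0.1) and log2(TPM + 1) called genes numbered 4 and 4 for exchange factors, 2 and 2 for GTPase-activating proteins, 5 and 6 for other MAP kinase kinase kinases, and 4 and 4 for other MAP kinase kinases. The last list had 3 with limma voom without scaling or filter, 2 with no count filter, 3 without WT31 replicates 2 and 3 and 1 to 2 with 1 library left out, where GTPase-activating proteins had 2 to 4. As CPM the ratio of Araf to Braf differed by 0.28 (exact permutation p = 0.00794), and with 1 library left out by 0.18 to 0.44 as TPM. As CPM the sums differed by -0.28 (Nras and Hras), 0.21 (Araf and Braf) and -0.03 (Map2k1 and Map2k2). Within 500 kb the medians were -0.25 for Nras and 0.19 for Braf, and with at least 10 counts the chromosome medians were -0.05, 0.26 and 0.01 for Nras, Braf and Map2k1. Without WT31 replicates 2 and 3 the median was 0.04 for neighbours of Hras and 0.05, 0.28 and 0.02 for chromosomes 7 (Hras, Mapk3), 6 (Braf) and 9 (Map2k1).

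Same-numbered libraries of the groups did not deviate together (correlations of -0.096 to 0.178; 2 of 5 best with their own number), by the numbers of the sample titles. For WT31 the file labels number the libraries differently, and pairs by those numbers were not tested. A replicate block in edgeR left 5 members called (Nras -0.37, Map2k2 0.21) and 9380 genes called. In the replicate block the ratios of Nras to Hras (-0.40) and Map2k1 to Map2k2 (-0.53) had an exact sign-flip p of 0.0625, the smallest that 5 pairs allow. Depth limits mainly genes near 3 counts, which none of the members was.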
